A study of Mus musculus with 12 samples.

Results

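The 8 genes Skint3, Ptprf, Upk1b, Hpgd, St8sia1, Zdhhc15, Pdzd4 and Elavl4 of the mouse bone marrow transcriptome are described here because their read counts set DF marrow apart from TF marrow. They are 8 of the 12199 genes deposited, and all 8 were among the 12175 genes tested. They were chosen by symbol for opposite or on-off counts between DF and TF, so the DF and TF values below are a description, and the TFD libraries, which did not choose them, give the comparison. The question was whether the triple mutant TFD lay with DF, with TF or with neither parent combination.

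DNMT3A adds methyl groups to cytosines in CG dinucleotides, and TET2 oxidises methylcytosine as a step toward its removal. Loss of either enzyme in blood stem cells is known for clonal expansion and for cooperation with the FLT3 internal tandem duplication (ITD), which keeps the FLT3 receptor kinase active. A gene whose level differs between a Dnmt3a and a Tet2 mutant on the same Flt3 ITD background is of interest beside the cross that carries both losses.

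RNA was measured in whole bone marrow mononuclear cells of C57BL/6 mice, with 3 WT, 3 DF, 3 TF and 2 TFD libraries. DF carried a floxed Dnmt3a allele (Dnmt3aFlox/+) with MxCre and Flt3 ITD/+, TF carried Tet2+/- with Flt3ITD/+, and TFD carried all of these alleles. WT mice were wild type at each locus and carried no MxCre. All animals, WT included, are described as having received poly(I:C), the agent that induces MxCre, which is active in blood cells and also in other interferon-responsive tissues. The Tet2 loss was germline, whereas the Dnmt3a loss was induced. TFD mice came from crossing TF with Dnmt3a floxed MxCre mice. No library carried Flt3 ITD alone, so the effect of the ITD and that of the second mutation cannot be told apart in any comparison with WT. MxCre was in DF and TFD, and TF is described without it. DF and TF also came from separate crosses, so their contrast cannot tell the second mutation from MxCre or from the cross.

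The libraries held 8274153 to 15900904 reads assigned to genes, and the 8 genes drew 216 to 1595 of these reads per library. The female-specific transcript Xist stood at 30976 to 42152 reads in WT replicate 3, TF replicate 3 and TFD replicate 2, and at no more than 538 reads in the other 8 libraries, while Y-linked Ddx3y was at most 12 reads in those 3 and at least 1040 in the rest. No DF library was of the high-Xist kind, so sex was unevenly spread over the groups. The transcript levels of the targeted genes did not separate the genotypes by allele: Dnmt3a stood at 5.25 to 5.54 log2 CPM in DF and 5.77 to 5.87 in TFD, against 4.95 to 5.85 in WT and 5.85 to 6.43 in TF. Tet2 stood at 7.09 to 7.68 log2 CPM in TF and 7.35 to 7.71 in TFD, against 7.21 to 7.40 in WT and 7.61 to 7.94 in DF. Counts summed over all exons cannot show loss of part of 1 allele. Flt3 was at 5.04 to 7.03 log2 CPM over the mutant libraries and 4.38 to 4.91 in WT. Neutrophil markers were the most abundant of the marker lists, at a summed 24910 to 81676 CPM (reads scaled to a common library size), and no marker of the erythroid, neutrophil, monocyte or T cell lists was at 0 in any library.

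Elavl4, Skint3 and Ptprf lie in that order on chromosome 4, yet their counts took 3 different patterns over the genotypes. Their promoter windows, 250 bases before to 50 bases after the RefSeq start, are shown because CG dinucleotides are the substrate of both mutated enzymes and because the windows differ widely in CG content. CG is in capitals, the sequences run 5′ to 3′ on the gene's strand, and the build is GRCm38.p6, which is the assembly called mm10 in the deposited table. The windows are chr4:112231995-112232294 on the plus strand for Skint3, chr4:118291348-118291647 on the minus strand for Ptprf and chr4:110351862-110352161 on the minus strand for the most upstream of 4 Elavl4 starts.
Skint3: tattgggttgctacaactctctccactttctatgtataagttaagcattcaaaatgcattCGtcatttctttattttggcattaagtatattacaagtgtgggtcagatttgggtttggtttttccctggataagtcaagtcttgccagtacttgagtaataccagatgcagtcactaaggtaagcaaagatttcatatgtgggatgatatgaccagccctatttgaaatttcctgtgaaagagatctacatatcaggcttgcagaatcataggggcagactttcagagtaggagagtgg
Ptprf: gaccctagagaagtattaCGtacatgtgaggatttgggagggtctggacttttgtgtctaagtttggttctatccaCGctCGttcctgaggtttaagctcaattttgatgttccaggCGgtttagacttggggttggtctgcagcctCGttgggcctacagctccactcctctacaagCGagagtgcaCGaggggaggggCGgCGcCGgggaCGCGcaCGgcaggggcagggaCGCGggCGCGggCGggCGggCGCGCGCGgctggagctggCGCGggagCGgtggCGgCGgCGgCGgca
Elavl4: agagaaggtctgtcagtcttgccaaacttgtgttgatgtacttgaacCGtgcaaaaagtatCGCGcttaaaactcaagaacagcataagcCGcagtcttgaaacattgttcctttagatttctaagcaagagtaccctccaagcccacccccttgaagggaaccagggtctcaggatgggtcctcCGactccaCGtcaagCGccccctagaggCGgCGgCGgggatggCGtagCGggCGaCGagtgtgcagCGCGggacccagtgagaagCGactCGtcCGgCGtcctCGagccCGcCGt

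The Skint3 window held 1 CG, the Ptprf window 30 and this Elavl4 window 23. Over the 32851 RefSeq windows of the same length the median was 7, and 14.1% held at most 1 CG while 89.4% held at most 30. Among the other genes, the count was 12 for Hpgd, 19 for St8sia1, 25 for Pdzd4 and 4 for Zdhhc15, and the 3 further Elavl4 windows held 4 to 6. A RefSeq window was found for 7 of the 8 genes, and for all 7 its start was the gene start in the deposited table. The genes lower in DF than in TF had windows on both sides of the all-window median, and Skint3, the gene higher in DF, had the fewest CG. The sequence TATAAA, searched on both strands, was in 1 of the 10 windows, that of Hpgd, against 13.6% of all windows. AGATAA was in 3 of the 10 windows, that of Pdzd4 and 2 overlapping windows of Elavl4, against 11.2%, and GAGGAA was in 2 windows, those of Hpgd and Zdhhc15, against 28.3%. No methylation was measured, and a match is only a match of letters.

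**Figure D1:**
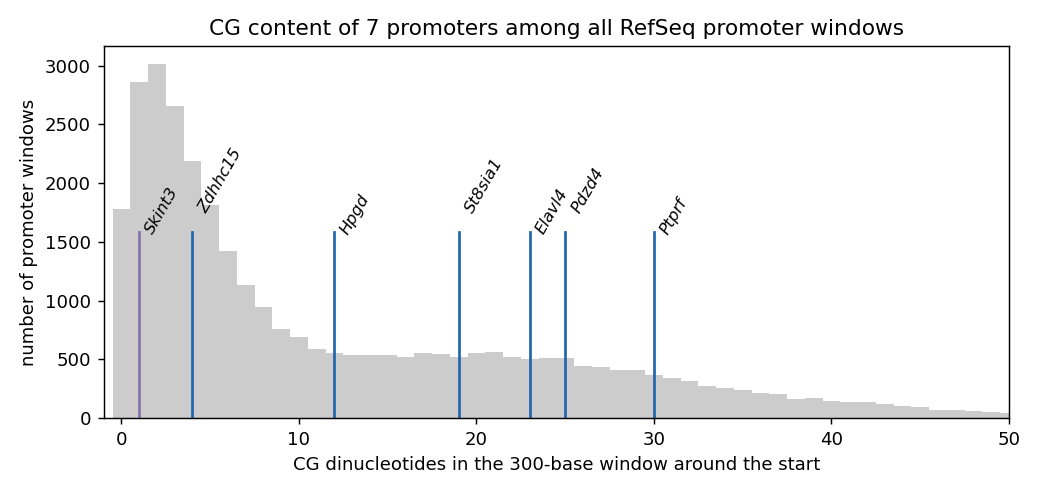
Number of CG dinucleotides in the 300-base promoter windows of 7 of the genes (vertical lines, with the most upstream start of Elavl4), over the histogram of all 32851 RefSeq windows. Skint3 (purple) is at 1 and Ptprf at 30, with the median of all windows at 7.

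All 8 genes were expressed at low levels. Mean expression per length over the 11 libraries ran from 0.38 RPKM for Elavl4, below which or at which 2.60% of genes tested lay, to 8.09 RPKM for Hpgd, at 41.0%, and all 8 genes were below the median of 10.9 RPKM. Their spread over libraries was wide. The SD of log2 CPM was 0.72 for Zdhhc15 and 4.26 for Skint3, against a median of 0.27 over all genes.

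By the rule, DF and TF did not overlap for any of the 8 genes, a separation that 25.9% of all genes also showed. Skint3 was higher in DF and the other 7 were lower in DF. Over all genes, 5.94% were called between DF and TF at an adjusted p under 0.05, and 4.27% were called lower in DF, which is 203 genes higher and 520 lower. When counts were scaled by library totals alone, the split was 106 higher and 659 lower. Nothing is read from these shares for the 8 genes, because the same contrast chose them. Fold sizes on the log2 scale ran from -1.76 for Zdhhc15 to -3.92 for Upk1b among the genes lower in DF. For Skint3, with no TF reads, a bound is given below.

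**Figure D2:**
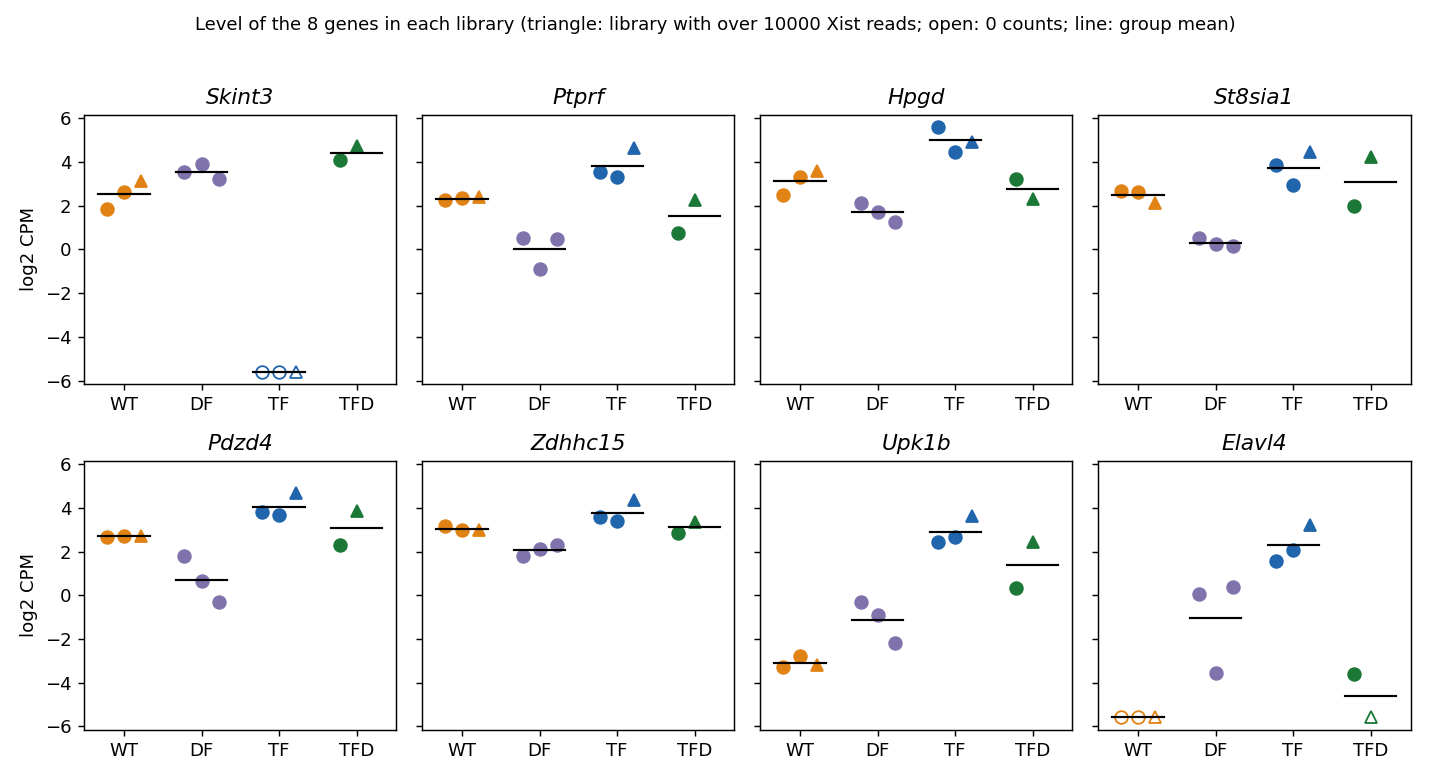
log2 CPM (vertical axis, with a prior count of 0.25 reads per library) of each gene in the 3 WT, 3 DF, 3 TF and 2 TFD libraries; open symbols are libraries with 0 reads, triangles are the libraries with over 10000 Xist reads, and the line is the group mean. TF is at the floor for Skint3 alone, and WT is at the floor for Elavl4 alone.

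Among the cell surface proteins, Skint3 (chr4:112232245-112300468) belongs to the Skint family of butyrophilin-like immunoglobulin proteins, whose founding member Skint1 is known for selecting a class of skin gamma delta T cells. It was the only gene of the 8 with no read in any library of a mutant group. The TF libraries held 0, 0 and 0 reads in a total of 35013634, which allows a level of up to 0.0844 CPM by a floor of 3 counts over the group. The WT libraries held 43, 50 and 97 reads, the DF libraries 145, 234 and 95, and the TFD libraries 273 and 295.

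TFD had the highest Skint3 level and TF none, and all 4 groups were apart from their neighbours in the order TFD, DF, WT and TF. Mean levels were 21.7 CPM ± 6.52 (SD, n = 2) in TFD, 12.0 CPM ± 2.86 (SD, n = 3) in DF and 6.13 CPM ± 2.58 (SD, n = 3) in WT. Against that floor, Skint3 was at least 247-fold higher in TFD than in TF. DF was at least 147-fold higher than TF and WT at least 71.7-fold higher. Of its 50-base sequence words, 0.495% are shared with another gene, Skint2, and no other gene of the Skint family was in the table of genes tested. Of 3 tested genes of the Skint and butyrophilin list, Btnl10 was lower in DF than in TF (log2 fold change -3.13, SE 0.48, edgeR adjusted p = 0.00383).

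Ptprf (chr4:118208213-118291397, minus strand) encodes LAR, a receptor tyrosine phosphatase of cell adhesion. The WT libraries held 58, 41 and 58 reads, the DF libraries 18, 8 and 14, the TF libraries 142, 123 and 274, and the TFD libraries 27 and 53. All neighbours were apart in the order TF, WT, TFD and DF, although the higher TFD library (2.25 log2 CPM) was almost level with the lowest WT library (2.26), and TFD passed the test against neither WT nor DF. In log2 CPM the means were 3.83 ± 0.71 (SD, n = 3) in TF, 2.33 ± 0.06 (SD, n = 3) in WT, 1.51 ± 1.04 (SD, n = 2) in TFD and 0.04 ± 0.82 (SD, n = 3) in DF. The DF level was lower than the TF level by a ratio of summed CPM of 14.5. Of 14 tested receptor tyrosine phosphatases and liprins, the LAR partners, 3 others were called between DF and TF, all lower in DF: Ptprm (-1.63, SE 0.39), Ptprs (-0.72, SE 0.13) and Ptpro (-0.50, SE 0.10), against the list median of -0.05 and 0.02 over all genes.

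Upk1b (chr16:38773184-38800203, minus strand) encodes a uroplakin of the tetraspanin family, known from the surface of the bladder lining. WT marrow held 1, 1 and 1 reads, DF 10, 8 and 2, TF 66, 77 and 136, and TFD 20 and 61. WT was close to nothing and every mutant library was above it, in the order TF, TFD, DF and WT, in which TF and TFD overlapped. Of 22 tested tetraspanins and uroplakins, 3 were lower in DF than in TF and 1, Cd63, was higher. The largest differences were in Tspan8 (-3.76, SE 0.71, edgeR adjusted p = 0.0107), Tspan33 (-2.54, SE 0.37, edgeR adjusted p = 0.0036) and Tspan13 (-0.74, SE 0.18, edgeR adjusted p = 0.029). The list median was 0.07, and no other uroplakin was tested.

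Among the enzymes, Hpgd (chr8:56294552-56321046) encodes the dehydrogenase that inactivates prostaglandins such as PGE2. The WT libraries held 69, 81 and 133 reads, the DF libraries 54, 51 and 24, the TF libraries 600, 267 and 336, and the TFD libraries 151 and 56. TF stood above all other groups and DF below them, while WT and TFD overlapped between the 2. In log2 CPM the means were 4.996 ± 0.58 (SD, n = 3) in TF, 3.14 ± 0.56 (SD, n = 3) in WT, 2.78 ± 0.65 (SD, n = 2) in TFD and 1.70 ± 0.42 (SD, n = 3) in DF. Of 18 tested genes of prostaglandin synthesis, breakdown, transport and receptors, 1 was called between DF and TF. That was Ptges, an enzyme that makes PGE2, higher in DF (0.82, SE 0.22, edgeR adjusted p = 0.0452).

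St8sia1 (chr6:142821541-142964452, minus strand) encodes GD3 synthase, which adds a sialic acid to make the ganglioside GD3. Reads numbered 78, 50 and 48 in the WT libraries, while the DF libraries held 18, 18 and 11, the TF libraries 179, 93 and 241, and the TFD libraries 63 and 209. DF was below all other groups, and TFD overlapped with TF above and with WT below. Of 19 tested genes of ganglioside synthesis and breakdown, B4galt6, which makes the lactosylceramide precursor, was higher in DF than in TF (1.01, SE 0.12), and Gm2a, the GM2 activator, was lower (-0.54, SE 0.12).

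Zdhhc15 (chrX:104536970-104671064, minus strand) encodes a palmitoyl acyltransferase of the DHHC family, which attaches fatty acids to cysteines. There were 111, 63 and 89 reads in WT, 44, 67 and 49 in DF, 150, 127 and 225 in TF, and 115 and 115 in TFD. It had the smallest difference between DF and TF of the 8 genes, with TF highest, DF lowest, and TFD and WT overlapping between them. Of 27 tested genes of palmitoylation, Zdhhc14 alone was called, lower in DF (-1.56, SE 0.34, edgeR adjusted p = 0.02).

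Pdzd4 (chrX:73793357-73824969, minus strand) encodes a protein with a PDZ domain, a fold that binds the tails of other proteins. Its reads were 77, 52 and 73 in WT, 43, 24 and 8 in DF, 171, 157 and 280 in TF, and 79 and 163 in TFD. The DF libraries were lowest and spread widely, and TFD overlapped both TF and WT. Pdzd4 and Zdhhc15 are both X-linked, 30.7 Mb apart, and the highest TF library for each was the high-Xist TF replicate 3.

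Elavl4 (chr4:110203737-110351911, minus strand) encodes HuD, a neuronal protein that binds AU-rich RNA. The WT libraries held 0, 0 and 0 reads, the DF libraries 13, 1 and 13, the TF libraries 36, 51 and 103, and the TFD libraries 1 and 0. Elavl4 thus held at least 36 reads in each TF library and 13 in each of 2 DF libraries. DF replicate 2 and each library of WT and the triple mutant, which carries the alleles of both double mutants, held at most 1 read. TF was above DF, and TFD and WT overlapped. DF replicate 2 and TFD replicate 1 held 1 read each, in 15900904 and 15496378 reads, so DF lay above TFD in every library only after scaling by the TMM factors, and the separation of those 2 groups rests on the factors. A floor of 3 counts over the WT group allows 0.0955 CPM, against which TF was at least 56.0-fold higher and DF at least 7.40-fold higher. The ratio of TF to TFD was 145, with a counting interval that starts at 25.8, and the ratio of DF to TFD was 19.2, from 3.17. None of the 10 tested genes of the ELAV and AU-rich element list was called by edgeR between DF and TF, with 2 at an unadjusted p under 0.05 and 1 called by DESeq2.

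TFD against WT contrasts neither group named in the choice, although the DF and TF libraries enter the test through the shared estimate of spread. Whether WT levels also entered the choice is not stated, so independence from it is not certain. Of the 8 genes 2 were called, Skint3 and Upk1b, both higher in TFD, against 26.3% of all genes. Skint3 was higher by 1.82 on the log2 scale (SE 0.34, edgeR adjusted p = 0.00271) and both TFD libraries were above the 3 WT libraries. Upk1b was higher by 4.94 (SE 0.88, edgeR adjusted p = 0.00147), and with 3 WT reads in all the ratio was 31.2, with a counting interval that starts at 10.3. Without TFD replicate 2 the Upk1b value was 3.58 (edgeR adjusted p = 0.0151). TFD and WT did not overlap for 3 of the 8 genes, these and Ptprf, against 49.5% of all genes. Both calls were made in all 20 alternative settings tried. In the fit of the WT and TFD libraries alone, Skint3 read 1.82 (edgeR adjusted p = 0.000617) and Upk1b 4.93 (edgeR adjusted p = 0.000572).

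The other 6 genes were not called in TFD against WT. Ptprf read -0.69 (SE 0.49, edgeR adjusted p = 0.335), Hpgd -0.32 (SE 0.39, edgeR adjusted p = 0.589), St8sia1 0.98 (SE 0.53, edgeR adjusted p = 0.192) and Pdzd4 0.57 (SE 0.47, edgeR adjusted p = 0.404). Zdhhc15 read 0.06 (SE 0.28, edgeR adjusted p = 0.902), and Elavl4, with 1 read in 5 libraries, gives no usable fold. Without TFD replicate 1, St8sia1 was called at 1.73 (edgeR adjusted p = 0.0134), and without TFD replicate 2 its direction turned, to -0.51 (edgeR adjusted p = 0.487). Among the libraries of the low-Xist kind, Ptprf was called at -1.53 (edgeR adjusted p = 0.0284), Skint3 at 1.85 (0.00331) and Upk1b at 3.53 (0.0104). That split leaves TFD replicate 1 alone, assumed to vary like the other groups. Leaving out TFD replicate 2 alone, Ptprf read -1.56 and was not called (edgeR adjusted p = 0.086), and leaving out TFD replicate 1 it read -0.083 (edgeR adjusted p = 0.933).

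Against DF, none of the 8 genes passed the threshold in TFD, and the share called over all genes was 0%. At an unadjusted p under 0.05 the edgeR test counted 8 of the 8 genes and 1727 of all genes. TFD and DF did not overlap for any of the 8 genes, Elavl4 by the TMM factors only, against 29.1% of all genes. The DF libraries took part in choosing the genes, so nothing is read from this share. The differences were 3.16 for St8sia1 (SE 0.60, edgeR adjusted p = 0.0993), 2.29 for Pdzd4 (SE 0.51, edgeR adjusted p = 0.108), 2.62 for Upk1b (SE 0.64, edgeR adjusted p = 0.133) and 1.04 for Zdhhc15 (SE 0.29, edgeR adjusted p = 0.157). They were 1.53 for Ptprf (SE 0.56), 1.13 for Hpgd (SE 0.41) and 0.84 for Skint3 (SE 0.32), and only Elavl4, with 1 TFD read and so no usable fold, was lower in TFD, with edgeR adjusted p from 0.255 to 0.284. Over left-out libraries Ptprf ran from 0.69 without TFD replicate 2 to 2.13 without TFD replicate 1, and Hpgd from 0.57 without TFD replicate 1 to 1.53 without TFD replicate 2. Skint3 likewise read 0.54 without TFD replicate 2.

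DESeq2 called St8sia1, Pdzd4, Zdhhc15 and Upk1b higher in TFD than in DF, with 258 of all genes. Leaving out TF replicate 3, which is in neither group and enters through the shared estimate of spread, edgeR called the same 4 genes. Leaving out TFD replicate 1, it called St8sia1, Pdzd4 and Upk1b, and with the 2 groups alone it called St8sia1 (adjusted p = 0.0196). Without TFD replicate 2 the differences were smaller and none was called: 1.71 for St8sia1, 1.37 for Pdzd4 and 1.29 for Upk1b, with edgeR adjusted p of 0.438, 0.749 and 0.999.

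The TF libraries also took part in choosing the genes, Skint3 for its 0 reads in TF, so the comparison of TFD with TF is not independent of the choice. Skint3 was called (edgeR adjusted p = 0.000294), 1 of 8 genes beside 0.0164% of all genes, which is 2 genes, the other being Hist3h2bb-ps at -1.55 (SE 0.16). TFD and TF did not overlap for 5 of the 8 genes, Skint3, Ptprf, Hpgd, Zdhhc15 and Elavl4, beside 22.3% of all genes, and nothing is read from these shares. Ptprf read -2.31 on the log2 scale (SE 0.49, edgeR adjusted p = 0.191) and Hpgd -2.20 (SE 0.39, edgeR adjusted p = 0.113) while Elavl4, with 1 TFD read, was lower without being called (edgeR adjusted p = 0.16). St8sia1, Pdzd4, Zdhhc15 and Upk1b differed by -0.40 (SE 0.51), -0.86 (SE 0.46), -0.72 (SE 0.28) and -1.30 (SE 0.53), with edgeR adjusted p from 0.493 to 0.875. Leaving out 1 TFD library moved these values widely: Ptprf read -1.71 without replicate 1 and -3.18 without replicate 2, Upk1b -0.55 and -2.65, Pdzd4 -0.26 and -1.80, and St8sia1 0.35 and -1.88.

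DESeq2 also called Ptprf (adjusted p = 0.00116), Hpgd (1.57e-05) and Elavl4 (0.00273) between TFD and TF. With a term for the high-Xist libraries edgeR called Skint3, Ptprf and Elavl4, and without TF replicate 2 or TFD replicate 1 it called Skint3 and Hpgd. In a fit of the TFD and TF libraries alone Skint3 was not called (edgeR adjusted p = 0.0591). These comparisons share the TFD libraries, so their values stand side by side and were not correlated.

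Measured from the TF mean at 0 to the DF mean at 1 on the log2 CPM scale, TFD lay at 0.19 for St8sia1, 0.29 for Pdzd4, 0.37 for Upk1b and 0.39 for Zdhhc15. It lay at 0.61 for Ptprf, 0.67 for Hpgd, 1.09 for Skint3 and above 1 for Elavl4. Thus 4 genes were nearer TF and 4 nearer DF, with 6 of the 8 inside the interval. The genes were chosen for a difference between the TF and DF levels that set this interval, so lying inside it is no result. Skint3 lay just beyond DF, on an axis of 9.15 log2 units that the floor for 0 reads in TF sets, and Elavl4 lay beyond it. The Elavl4 position has no measured size, because WT and TFD replicate 2 are at the floor for 0 reads and TFD replicate 1 held 1 read. For 5 genes the TFD replicates were nearer different parents, and the replicates differed by 2.24 on the log2 scale for St8sia1 and 2.10 for Upk1b. Without TFD replicate 2 all 8 genes were nearer DF, and without TFD replicate 1, 3 were. On the linear CPM scale 6 of the 8 were nearer DF.

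Against the mean of DF and TF on the log2 scale, edgeR called 0.0164% of all genes, and among the 8 it called Skint3. The TF value of 0 reads that chose Skint3 is part of this contrast, so its call is no result, and against DF alone Skint3 was not called. Elavl4 was not called by edgeR (adjusted p = 0.345) and was called lower by DESeq2 (adjusted p = 0.0447). St8sia1 read 1.38 (SE 0.47, edgeR adjusted p = 0.446). Without TFD replicate 1 it was called at 2.13 (edgeR adjusted p = 0.0289), and without TFD replicate 2 it turned to -0.086. The other 5 genes lay between -0.54 and 0.72.

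**Figure D3:**
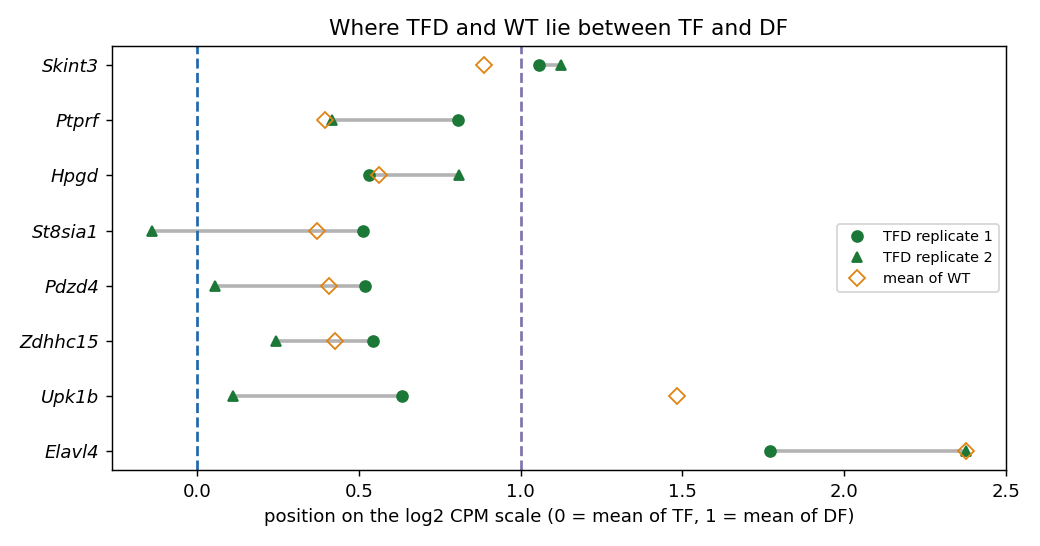
Position of each TFD library (green; circle replicate 1, triangle replicate 2) and of the WT mean (diamond) on the log2 CPM scale from the TF mean (0) to the DF mean (1). The TFD replicates sit on different sides of the midpoint for 5 genes; the Skint3 axis is stretched because TF has 0 reads and is drawn at the prior-count floor, as are WT and TFD replicate 2 for Elavl4.

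Individual libraries moved several of the genes together. Of the 7 genes with reads in TF, 6 were highest in TF replicate 3, the exception being Hpgd in TF replicate 1. TFD replicate 2 was higher than TFD replicate 1 for 6 of the 8 genes, with Hpgd and Elavl4 the exceptions. These 2 libraries are of the high-Xist kind, as is WT replicate 3, the highest WT library for 4 of the 7 genes ranked there. DF replicate 1, of the low-Xist kind, was the highest DF library for 5 of the 8. Over all genes, TF replicate 3 was the highest TF library for 37.9% and TFD replicate 2 the higher TFD library for 48.8%. WT replicate 3 was the highest WT library for 31.9% and DF replicate 1 the highest DF library for 36.9%. The part of sex in these shifts was not tested.

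Markers of several cell types were also lower in DF than in TF. Plasmacytoid dendritic cells are known for making type I interferon, and all 6 of their markers were lower in DF than in TF. Siglech held 432, 341 and 472 reads in WT, 17, 1 and 1 in DF, 195, 146 and 693 in TF, and 8 and 59 in TFD, with a DF to TF log2 difference of -5.89 (SE 0.94, edgeR adjusted p = 0.00482). Cox6a2 (-3.94, SE 0.92) and Ccr9 (-3.38, SE 0.74) had the next largest differences, and Cox6a2 was at 0 reads in 1 DF and 1 TFD library. The summed level of the list was 213 to 236 CPM in WT, 101 to 115 in DF, 204 to 509 in TF and 127 to 218 in TFD. The highest TF library was TF replicate 3 and the higher TFD library TFD replicate 2, which were each the highest of their group for 6 of the 8 genes. In TFD against WT 3 of the 6 were lower, Siglech, Ccr9 and Cox6a2.

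Erythroid markers also moved. Of 8 tested, 7 were lower in DF than in TF, among them Klf1 (-3.03, SE 0.55) and Epor (-2.88, SE 0.53), and their sum was 1375 to 1762 CPM in WT, 295 to 430 in DF, 557 to 1466 in TF and 509 to 660 in TFD. The erythroid sum was thus highest in WT for most libraries, and it was higher in TFD replicate 1 (660) than in TFD replicate 2 (509). Fewer markers were lower in DF in the lists for plasma cells (Jchain, Sdc1 and Irf4, 3 of 6, 446 to 462 CPM in DF and 618 to 1151 in TF), monocytes and macrophages (Cd163, C1qa and C1qb, 3 of 10, 5167 to 5916 and 4823 to 5979), T cells (Cd4 and Cd5, 2 of 8, 19.4 to 32.4 and 29.3 to 81.0) and NK cells (Klrk1, 1 of 6, 14.05 to 22.2 and 21.8 to 46.2). None of the 10 B cell markers was called by edgeR between DF and TF, with 7 at an unadjusted p under 0.05 and 3 called by DESeq2, and 3 of them were at 0 in some DF library. Of 10 neutrophil markers 1, Elane, was higher in DF (0.69, SE 0.15), with a list sum of 60224 to 81676 CPM in DF and 36956 to 48314 in TF, and DESeq2 called 8 of the 10, none of them lower. Of the other lists, edgeR called Gata2 of 10 eosinophil, basophil and mast cell markers higher in DF, Ly6a of 8 stem and progenitor markers and Cdh5 of 9 stroma and endothelium markers lower, and none of 7 megakaryocyte markers, of which 0 had an unadjusted p under 0.05 and 0 were called by DESeq2. In TFD against WT the marker lists also moved. All 10 B cell markers were lower in TFD, with a median of -6.20 on the log2 scale beside 0.0069 over all genes, and a summed level of 564 to 692 CPM in WT and 19.2 to 19.9 in TFD. Lower markers numbered 6 of 8 for erythroid cells, 4 of 6 each for NK and plasma cells and 4 of 8 for T cells, while of 10 monocyte and macrophage markers 5 were higher and 2 lower, with a sum of 1890 to 1990 CPM in WT and 5047 to 5118 in TFD. Of 10 neutrophil markers 1 was higher and 1 lower. Their sum was 50841 to 63304 CPM in WT and 24910 to 48217 in TFD. Of 8 stem and progenitor markers 3 were higher and 2 lower. Their sum was 169 to 188 CPM in WT and 301 to 362 in TFD. In whole marrow, fewer cells of a type and less RNA per cell cannot be told apart, and the part of these cell types in the levels of the 8 genes was not tested.

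**Figure D4:**
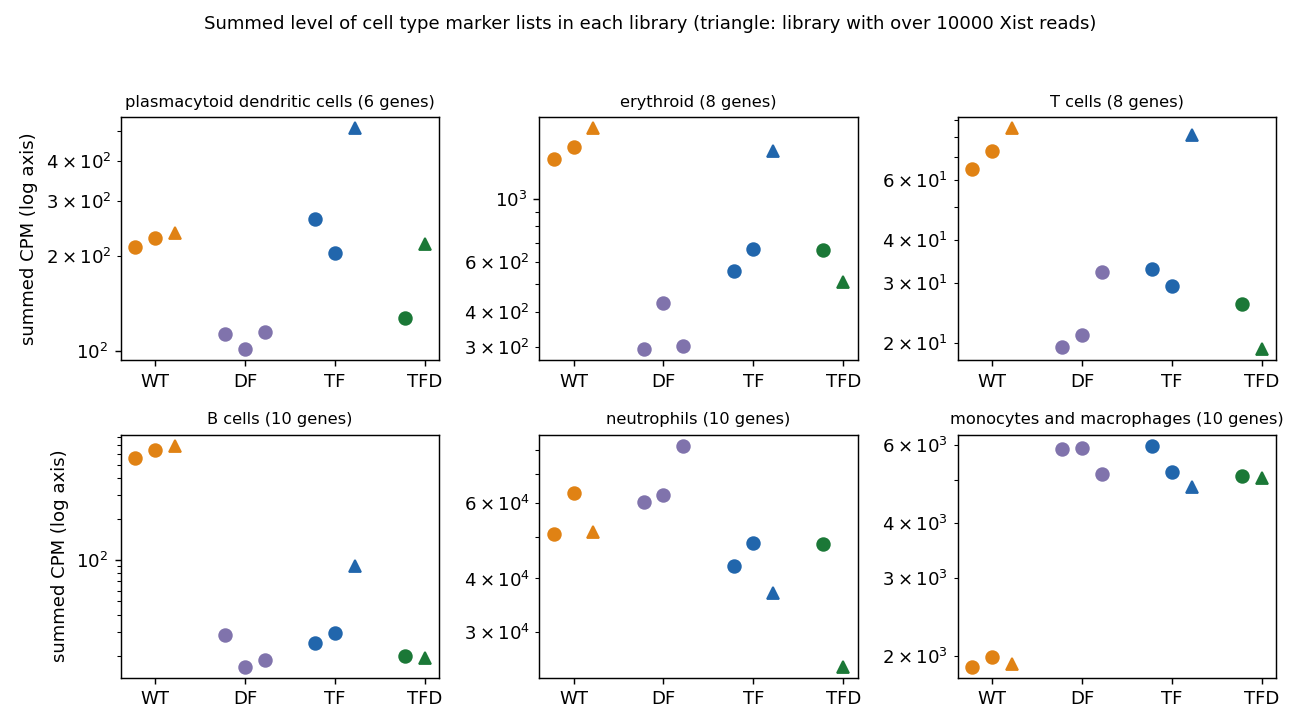
Summed CPM (log axis) of 6 marker lists in each library by genotype, with triangles for the libraries of over 10000 Xist reads. The plasmacytoid dendritic list is lowest in the DF libraries, at 101 to 115 CPM, and highest in TF replicate 3, at 509 CPM.

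The genes most like each of the 8 over the 11 libraries were found by the root mean square difference of log2 CPM after centring each gene on its own mean. Zdhhc15 had the closest, Slc46a3 (0.17), Irf7, the transcription factor that drives type I interferon genes (0.21), and Runx2 (0.22), one of the plasmacytoid dendritic markers above. Slc46a3 lies within 1 Mb of Flt3 and was called lower in DF than in TF (-1.55, SE 0.25). For Pdzd4 the closest was Usp18, a protease that removes ISG15 (0.44), followed by St8sia1 (0.47) and Rtn4rl1 (0.55). For St8sia1 they were Pdzd4 (0.47), Usp18 (0.53) and Cd7 (0.53). Pdzd4 and St8sia1, on different chromosomes, were thus each among the 3 nearest to the other of 12175 genes. Both were chosen for their difference between DF and TF, whose libraries enter the measure, so nothing is read from this likeness.

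For Ptprf the closest were Rgl1 (0.56), Ifit3, an interferon-induced protein (0.56), and Rtp4 (0.58), and for Hpgd they were Rtp4 (0.56), Ifi27l2a (0.57) and Phf11b (0.62). Upk1b was matched less closely on this unscaled measure, by Hrh1 (0.98), Cd209c (1.04) and Cadm3 (1.13). Its own spread was also wider, at 2.46 against 1.31 for Hpgd. Skint3 and Elavl4 had no close match. The nearest gene to Skint3 was Lipg at 3.19, followed by Fcnb (3.28) and Cxcr1 (3.33), against its own spread of 4.06. The nearest to Elavl4 was Kcnip3 at 2.34, followed by Rnase2a (2.38) and Hyi (2.48), against its own spread of 3.34. These measures share libraries, depth and, for genes at a few reads, counting error, and they carry no test.

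Among themselves, Ptprf, Hpgd, St8sia1, Pdzd4 and Zdhhc15 lay between 0.47 (St8sia1 and Pdzd4) and 1.02 (Hpgd and St8sia1) from each other. Upk1b lay 1.92 to 2.17 from these 5 genes, which were well above the detection floor in WT where Upk1b held 1 read per library. Skint3 lay 4.57 to 6.95 from the other 7. The DF and TF libraries that chose the genes enter these distances, so nothing is read from them.

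Positions on the chromosomes were examined because an engineered allele brings linked DNA of its source strain with it. None of the 8 genes lies on chromosome 12 with Dnmt3a, chromosome 3 with Tet2 or chromosome 5 with Flt3. The location of the MxCre transgene is not given in the sources used here. Within 1 Mb of the targeted genes, DF against TF called 1 of 17 genes at Dnmt3a, 0 of 5 at Tet2 and 1 of 13 at Flt3. Elavl4 and Skint3 are 1.88 Mb apart and Skint3 and Ptprf 5.91 Mb apart. Between Elavl4 and Ptprf 50 other genes were tested, and 3 of them, 6%, were called between DF and TF: Tal1 (-1.20, SE 0.29), Slc6a9 and Tesk2 (0.71, SE 0.19). Within 1 Mb of the 8 genes, 5 of 102 other genes were called (4.90%), and within 5 Mb 18 of 329 (5.47%), against 5.94% of all genes.

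The 5 called neighbours within 1 Mb were Slc6a9, a glycine transporter (-2.27, SE 0.49), and Ermap, an erythroid membrane protein (-2.86, SE 0.50), near Ptprf, L1cam (-0.72, SE 0.19) and G6pdx (0.52, SE 0.11) near Pdzd4, and B4galt4 (-0.66, SE 0.16) near Upk1b. B4galt4, 4.13 kb from Upk1b, was the only immediate neighbour called among the 2 nearest tested genes on each of the 8. The nearest tested gene to Skint3 was 403 kb away, Spata6, which differed by -0.24 between DF and TF (edgeR adjusted p = 0.349). Read counts per gene hold no bases, so strain variants in or near the 8 genes were not measured, and their part in the on-off levels of Skint3 and Elavl4 was not tested.

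The reads of 2 genes may include those of another. St8sia1 and Pdzd4 each overlap 1 annotated gene on the opposite strand, Gm7457 and Gm14817, and whether reads were counted by strand is not given in the sources used here. Of the 50-base words of St8sia1, 0.633% occur in other genes, and for the 6 genes other than Skint3 and St8sia1 none did.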

How the data were processed

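RNA-seq counts from whole bone marrow mononuclear cells were analysed in 3 WT, 3 DF, 3 TF and 2 TFD mice, and a further TFD mouse was not analysed here. Per the labels, total RNA was depleted of globin mRNA and made into stranded libraries. The authors aligned reads to mm10 (STAR), counted unique alignments over refGene models (featureCounts) and removed genes that did not exceed 0.5 CPM in over 3 samples. They deposited whole-number counts with the gene length. Program versions and strand settings are not given in the sources used here. The study used DESeq2.

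From the deposited counts, edgeR 4.0.16 in R 4.3.3 was run with TMM factors and the quasi-likelihood test on all 11 libraries with 1 mean per genotype, after the same CPM filter, which left 12175 of 12199 genes. Adjusted p is Benjamini-Hochberg over these genes, with a threshold of 0.05. Levels are log2 CPM with a prior count of 0.25 reads, linear CPM, or RPKM computed from the deposited length. Standard errors are the log2 fold change divided by the square root of the F statistic. Groups were called apart when no library of one lay within the range of the other. The spread between mice is the only replication, and with 2 TFD mice precision is limited. Floors of 3 counts and 95% counting intervals cover counting error only. The procedure was tested on simulated counts. Promoter windows are RefSeq, GRCm38.p6.

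The 8 genes, the gene lists and the tests were chosen with earlier results of these data known. Further genes were named by rule: the targeted genes, Xist and Ddx3y, up to 3 called genes with the largest change per list and per 1 Mb window, and the 3 genes most like each of the 8. Spata6, Tal1, Tesk2, Cd63 and Hist3h2bb-ps were named after their values were seen. A further item is not reported here. Alternatives were DESeq2 1.42.0, other normalizations and filters, only the groups compared, a replicate block, a term for high-Xist libraries and leaving out each library. Figures were drawn with matplotlib 3.10.9.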

Additional observations from a re-analysis of the deposited data

How the results depend on the processing

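The counts of calls that compare TFD with DF or TF depended on the setting, and the causes were not tested. For TFD against DF, where edgeR called 0 genes, DESeq2 called 258 genes and 4 of the 8, the fit of the groups alone 135 and 1, the low-Xist libraries alone 150 genes, the replicate block 42 genes, and leaving out 1 library gave 0 to 384 genes and 0 to 4 of the 8. For TFD against TF, with 2 genes and 1 of the 8, DESeq2 called 131 and 4, the groups alone 0 and 0, the Xist term 22 and 3, the low-Xist libraries 15 and 2, and leaving out 1 library gave 2 to 76 and 1 to 2. Against the mean of DF and TF, with 2 and 1, DESeq2 called 66 and 2, the replicate block 1 gene, the Xist term 5 genes, the low-Xist libraries 53 genes, and leaving out 1 library gave 1 to 146 and 1 to 2. For DF against TF, with 723 genes, leaving out 1 library gave 169 to 933. The number of genes nearer DF ran from 3 to 8 when 1 library was left out. The direction of uncalled genes turned when a TFD library was left out, with ranges over left-out libraries, in TFD against WT, of -0.87 to 0.053 for Hpgd, -0.51 to 1.73 for St8sia1, -0.37 to 1.17 for Pdzd4 and -0.20 to 0.30 for Zdhhc15. In the low-Xist libraries these 4 read 0.30, -0.68, -0.37 and -0.24, and with the Xist term Zdhhc15 read -0.039. In TFD against TF the range was -1.88 to 0.35 for St8sia1. Against the mean it was -1.24 to 0.21 for Ptprf, -0.086 to 2.13 for St8sia1, -0.21 to 1.32 for Pdzd4, -0.086 to 0.40 for Zdhhc15 and -0.68 to 1.41 for Upk1b, and in the low-Xist libraries Pdzd4 read -0.027 and Upk1b -0.46. The fit of the low-Xist libraries alone was chosen after seeing the data. Of 15 pairs of libraries with the same replicate number, deviations correlated from -0.30 to 0.25, and 3 pairs were over 0.1. Of 11 libraries, 4 matched their own number best. These values cannot show whether the numbers pair the mice, which the labels do not state. The replicate block changed no call among the 8 genes. Skint3 and Upk1b in TFD against WT were called in all 20 alternatives. Depth limits Upk1b and Elavl4, at 0 or 1 read in WT.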
